A study of Homo sapiens with 6 samples.

Results

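HOX genes encode homeodomain transcription factors that give cells along the body axis their positional identity, and many of them stay active in adult epithelia such as the breast. They lie in clusters on different chromosomes, numbered by paralog group from the early, anterior end to the late, posterior end, and retinoic acid receptors, Polycomb complexes and MLL complexes are known to set which part of a cluster is open. HOX proteins bind DNA together with TALE cofactors of the PBX and MEIS families.

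The genes described here are the 39 protein-coding members of the HOXA, HOXB, HOXC and HOXD clusters, chosen by symbol alone, of 23459 genes in the count table. There are 11 genes in HOXA, 10 in HOXB, 9 in HOXC and 9 in HOXD, and antisense RNAs of the clusters were kept apart. They were measured by 3′ mRNA-Seq in MCF10A, an untransformed human mammary epithelial line. They had been transfected at 20 nM with control siRNA that targets no transcript (siCtrl) or with siRNA for YAP and its homolog TAZ (siYAP/TAZ), and there were 3 libraries of each kind. YAP and TAZ are the coactivators at the end of the Hippo pathway, and the comparison asks which transcripts depend on them. All 6 libraries are labelled wild type (WT), and a knockdown by siRNA leaves part of the targeted mRNA.

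Library totals ran from 3175149 to 4317286 counts. For siCtrl replicate 2 and siYAP/TAZ replicate 2, the titles and the genotype entries name the opposite group to the descriptions. The description, which is also the column name, was used. YAP1, one of the targeted genes, stood at 188.7, 204 and 210 CPM (counts scaled by TMM to a common library size) with siCtrl replicates 1, 2 and 3 and at 116.5, 118 and 112 CPM with siYAP/TAZ, which left 57.5% of the control level. WWTR1, the gene of TAZ, was left at 61.8%, and the groups of both genes were separate under the descriptions. With the groups of the titles, edgeR called 0 of all genes tested and 464 had an unadjusted p under 0.05. The basal mammary markers KRT5, KRT6A, TP63 and LAMB3 were all present, and the summed level of the 10 basal markers was 3603 to 3983 CPM with siCtrl and 2691 to 2953 CPM with siYAP/TAZ. The 6 epithelial markers summed to 860.2 to 1289 CPM with siCtrl and 1147 to 1375 CPM with siYAP/TAZ, with CDH1, EPCAM, KRT8, KRT18 and DSP present and KRT19 at 0 to 1 counts. The 6 fibroblast markers summed to 158 to 173 CPM with siCtrl and 158 to 184 CPM with siYAP/TAZ, nearly all of it PDGFRA, with COL1A2 and COL3A1 at 0. The 4 endothelial markers summed to 2.26 to 4.01 CPM with siCtrl and 5.67 to 12.9 CPM with siYAP/TAZ, with CDH5 at 0 to 2 counts. The 5 leukocyte markers summed to 5.74 to 12.03 CPM and 4.08 to 8.92 CPM, with CD79A at 0. The 4 luminal hormone markers summed to 48.0 to 56.0 CPM and 47.3 to 58.9 CPM. The part of these markers in the HOX results was not tested.

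Promoter sequences are given for some of the genes below, and their bearing on the counts was not tested. RefSeq starts HOXC4, HOXC5 and HOXC6 at a single position, and the promoter entries of HOXC4 and HOXC5 (chr12:54016638-54016937, plus strand, GRCh38.p14) are the same 300 bases. That sequence, 1 of the 2 promoter entries of HOXA10 (chr7:27179812-27180111, minus strand, GRCh38.p14) and the promoter of HOXA2 (chr7:27102634-27102933, minus strand, GRCh38.p14) are shown, because HOXC4 and HOXC5 also had nearly equal counts, HOXA10 shared its counts with neighbouring transcripts, and HOXA2 is one of the 6 genes that reached an unadjusted p under 0.05. Each runs 5′ to 3′ on the gene's strand from 250 bases before to 50 bases after the start, and capitals mark CATTCC or its reverse complement GGAATG, the core of the TEAD motif through which YAP and TAZ reach DNA. The other HOXA10 entry (chr7:27174271-27174570, minus strand, GRCh38.p14) holds neither.
HOXC4 and HOXC5: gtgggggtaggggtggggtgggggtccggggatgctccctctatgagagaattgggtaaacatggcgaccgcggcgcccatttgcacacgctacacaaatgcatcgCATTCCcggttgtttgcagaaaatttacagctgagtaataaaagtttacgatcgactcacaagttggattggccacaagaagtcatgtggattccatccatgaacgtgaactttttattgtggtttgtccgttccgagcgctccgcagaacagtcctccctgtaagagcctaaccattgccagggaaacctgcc
HOXA10: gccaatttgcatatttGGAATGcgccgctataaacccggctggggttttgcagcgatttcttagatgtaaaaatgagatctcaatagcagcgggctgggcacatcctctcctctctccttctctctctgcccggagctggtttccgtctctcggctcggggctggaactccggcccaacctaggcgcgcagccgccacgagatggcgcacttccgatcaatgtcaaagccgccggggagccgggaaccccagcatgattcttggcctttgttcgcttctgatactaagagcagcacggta
HOXA2: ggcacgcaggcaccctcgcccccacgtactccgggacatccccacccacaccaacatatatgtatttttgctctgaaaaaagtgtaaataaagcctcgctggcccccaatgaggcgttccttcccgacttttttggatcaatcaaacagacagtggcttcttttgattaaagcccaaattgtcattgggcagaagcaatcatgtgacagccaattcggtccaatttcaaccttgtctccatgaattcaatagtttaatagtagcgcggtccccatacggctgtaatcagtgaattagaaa

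The promoter table held 27 entries for 20 of the 39 HOX genes. CATTCC on either strand lay in 8 of these entries, those of HOXA3, HOXA10, HOXC4, HOXC5, HOXD4, HOXD8, HOXD10 and HOXD13, and in 14.03% of all 35116 promoters of that length. The AP-1 motif TGANTCA lay in 0 of the 27 entries and in 7.71% of all promoters. HOXA5, HOXB3, HOXB4, HOXC8 and HOXC13 had no entry. The median number of CpG dinucleotides was 22 in the HOX entries and 14 in all promoters. It was 15 in the 14 entries of HOX genes that were tested below. The HOXD entries had 4 to 36 CpG dinucleotides. A letter match is a description of these windows and not a measured binding site.

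The first result was which HOX genes had counts in these MCF10A libraries. The HOXA and HOXC clusters supplied nearly all HOX counts, the HOXB cluster little, and the HOXD cluster none. Among the 39 genes, 15 had 0 counts in every library, and these were HOXA13, HOXB1, HOXB5, HOXB8, HOXB13, HOXC12 and all 9 HOXD genes. The upper limit that 0 counts allow, 3 counts, came to 0.680 to 0.992 CPM across the libraries, for counting error only. The long noncoding RNAs of the HOXD locus, HAGLR and HOXD-AS2, were also at 0 in every library, as was EVX2 at the posterior end of that cluster. The flanking genes LNPK and MTX2 on either side of HOXD stood at 50.4 and 104 CPM with siCtrl, so reads were counted around the cluster.

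**Figure D1:**
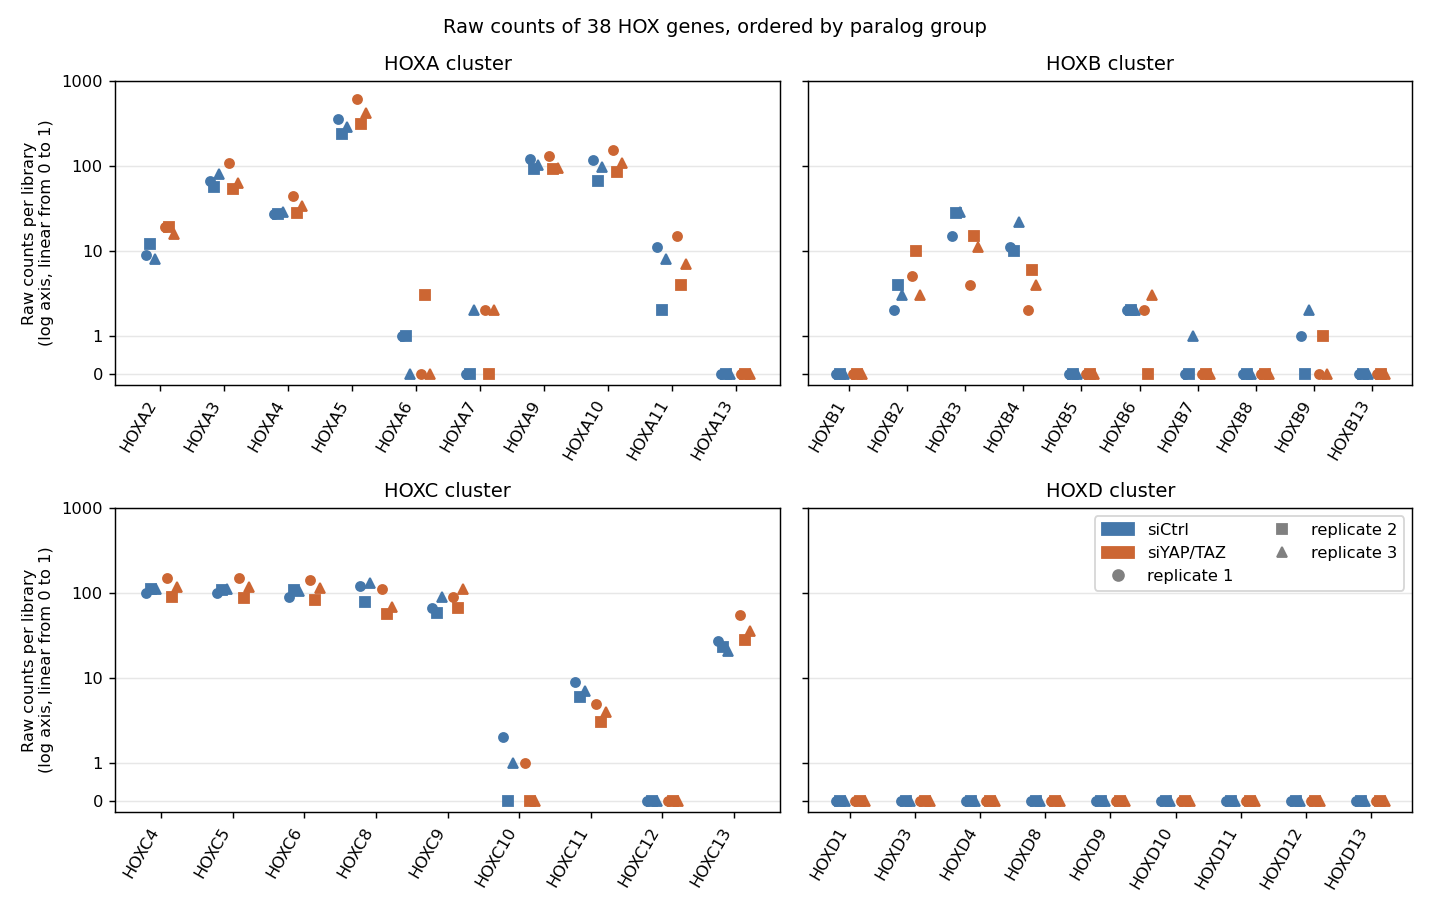
Raw counts (y axis, log scale that is linear from 0 to 1) of 38 HOX genes in each library, one panel per cluster, with genes ordered along the x axis by paralog group. Colours mark siCtrl and siYAP/TAZ and symbols mark the replicate number. HOXA5 is the highest gene, HOXB genes stay at 29 counts or fewer, and all 9 HOXD genes lie at 0.

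A further 10 genes had counts too low for the filter of edgeR. HOXC11 had 9, 6 and 7 counts with siCtrl against 5, 3 and 4 with siYAP/TAZ. On the CPM scale, it was lower in every siYAP/TAZ library than in any siCtrl library, at counts that limit the precision. In a fit without the filter, HOXC11 had a log2 difference of -0.92 (adjusted p = 0.532, edgeR, SE 0.58). HOXA11, a limb and uterus patterning gene, ranged from 2 to 15 counts and HOXB2 from 2 to 10. HOXA6, HOXA7, HOXB6, HOXB7, HOXB9 and HOXC10 had at most 3 counts in any library. In that unfiltered fit these genes were fitted too, and 0 HOX genes passed the threshold.

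The 14 genes that passed the filter were HOXA2, HOXA3, HOXA4, HOXA5, HOXA9, HOXA10, HOXB3, HOXB4, HOXC4, HOXC5, HOXC6, HOXC8, HOXC9 and HOXC13. A 3′ library gives about the same number of reads per transcript whatever its length, so levels of different genes can be set side by side as CPM. HOXA5 led with 82.5 ± 17.6 CPM (SD, n = 3) with siCtrl, and its lowest siCtrl library, at 72.1 CPM, lay above every siCtrl value of the other HOX genes. HOXC8 at 30.7 ± 5.49, HOXC4 at 30.4 ± 3.37, HOXA9 at 29.6 ± 4.41 and HOXA10 at 26.1 ± 6.79 CPM did not differ from their neighbours in this order beyond their spread. HOXC9 at 19.8 ± 2.22 and HOXA3 at 19.1 ± 1.39 CPM were next and also overlapped. HOXA4 at 7.79 ± 0.523, HOXB3 at 6.75 ± 2.22 and HOXC13 at 6.71 ± 1.28 CPM formed a lower level, followed by HOXB4 at 3.92 ± 1.39 and HOXA2 at 2.77 ± 0.861 CPM.

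Members of some paralog groups had very unequal counts. In group 5, the HOXA5 row had the highest counts of the 39 HOX genes. The shared HOXC5 row had 87 to 149 counts and HOXB5 was at 0. As described below, reads of HOXA5 and of its antisense transcript cannot be told apart. In group 13, which patterns limbs, genital tract and skin appendages, HOXC13 had 21 to 55 counts while HOXA13, HOXB13 and HOXD13 were at 0. In group 9, HOXA9 and HOXC9 were well counted, HOXB9 had 0 to 2 counts and HOXD9 none. In group 4, HOXA4, HOXB4 and the shared HOXC4 row were all counted and HOXD4 was not.

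Several HOX rows appear to hold the same reads, and this affects which values are separate measurements. HOXC4 had 100, 111 and 112 counts with siCtrl and 149, 89 and 118 with siYAP/TAZ. HOXC5 had 99, 110 and 112 counts with siCtrl and 149, 87 and 118 with siYAP/TAZ, a difference from HOXC4 of 0 to 2 counts in a library. HOXC6 had 91, 108 and 106 counts with siCtrl and 142, 83 and 116 with siYAP/TAZ, 2 to 9 fewer than HOXC4. These 3 rows are not separate measurements, and the level of any one of the genes is uncertain.

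HOXA5 and the antisense transcript HOXA-AS3 showed the same pattern on opposite strands. HOXA5 had 358, 235 and 287 counts with siCtrl and 622, 308 and 415 with siYAP/TAZ, while HOXA-AS3 had 363, 240 and 294 with siCtrl and 626, 315 and 423 with siYAP/TAZ, a difference of 4 to 8 counts. HOXA10 and HOXA10-AS differed by 0 to 6 counts in a library. HOXB6 and HOXB-AS3 had equal counts in all 6 libraries, at 0 to 3. The kit reads the sense strand, but whether the counting used strand is not stated, so sense and antisense reads at these loci cannot be told apart here.

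The annotated read-through gene HOXA10-HOXA9 had 239, 158 and 201 counts with siCtrl and 290, 177 and 203 with siYAP/TAZ. These differed by 0 to 3 counts from the sum of HOXA9 and HOXA10, so that row repeats the reads of both genes. HOXC13-AS had 1 to 13 counts against 21 to 55 for HOXC13, so those neighbours did not repeat each other's counts. In the GENCODE annotation, 15 pairs of HOX genes have overlapping spans, and 22 of the 39 genes are in such a pair. An overlap of spans alone did not give equal counts, since HOXA3, whose span holds HOXA5, had 54 to 109 counts against 235 to 622 for HOXA5.

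**Figure D2:**
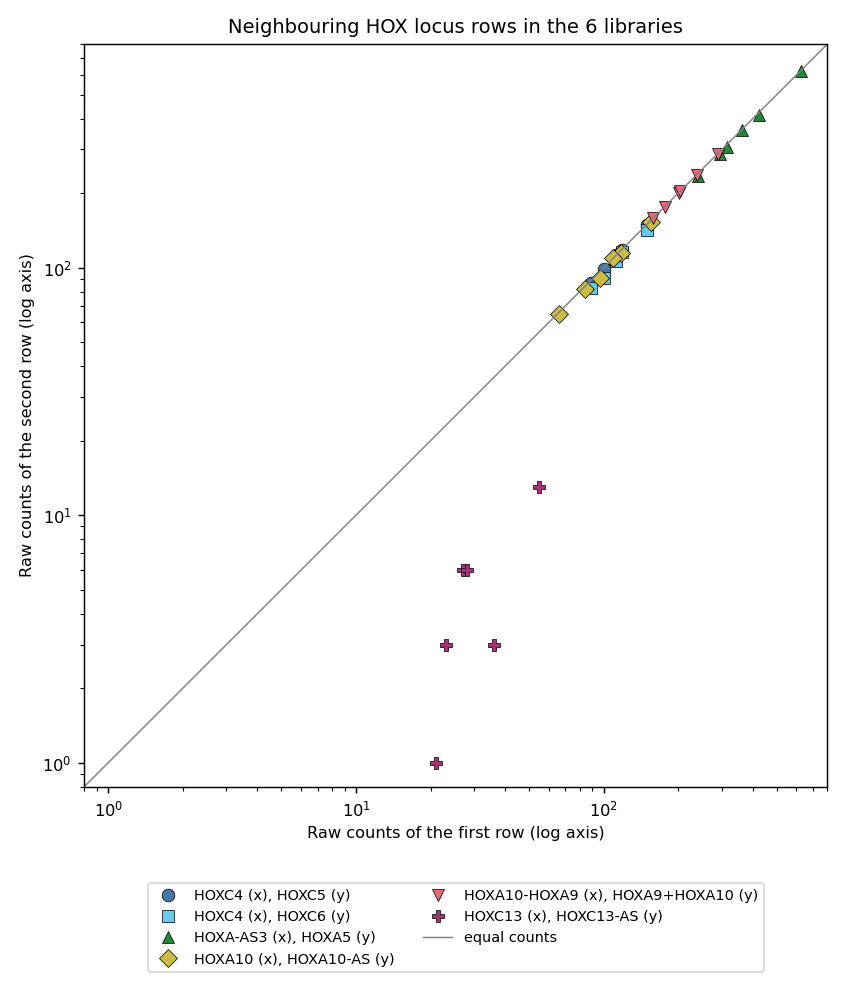
Raw counts of neighbouring rows at HOX loci in the 6 libraries, with the first row of each pair on the x axis and the second on the y axis (both log axes). Pairs on the diagonal have equal counts: HOXC4 with HOXC5 and HOXC6, HOXA-AS3 with HOXA5, HOXA10 with HOXA10-AS, and HOXA10-HOXA9 with the sum of HOXA9 and HOXA10. HOXC13 and HOXC13-AS lie away from the diagonal.

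After depletion of YAP and TAZ, the values of both groups overlapped for 10 of the 14 tested HOX genes. Among all genes tested, 22.1% had groups that did not overlap. In these bulk libraries fewer cells of a type and less RNA per cell cannot be told apart. In the edgeR quasi-likelihood test with adjustment over 12510 genes, 0 of the 14 tested HOX genes passed an adjusted p under 0.05, against 1.96% of all genes tested (1.22% lower and 0.743% higher). An unadjusted p under 0.05 was reached by 6 HOX genes, against 17.7% of all genes tested. These were 3 genes with a higher level with siYAP/TAZ, against 8.4% of all genes, and 3 with a lower level, against 9.27%. Among the 6, HOXA2 and HOXB4 passed the filter through the group where they were high. HOXB3 and HOXB4, both lower, may share reads. DESeq2 also called 0 HOX genes, against 4.54% of the 12933 genes to which it gave an adjusted p. In DESeq2 4 HOX genes had an unadjusted p under 0.05, as did 1924 of all genes. The replicate numbers were taken to pair the libraries, which the labels do not state. With the replicate number as a block 1 HOX gene passed, HOXA5, which was higher. In that fit 10.1% of all genes tested passed in either direction and 4.66% were higher. Without both libraries whose labels conflict, 1 HOX gene passed, HOXB4, which was lower, against 9.29% of all genes tested in either direction and 4.64% lower. The median log2 fold change of the tested HOX genes was 0.08, and that of all genes tested was -0.00. The HOX median lay between the values of HOXC4 (0.07) and HOXC6 (0.09). The HOXC4, HOXC5 and HOXC6 rows, which are not separate measurements, each entered this median and the counts out of 14.

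**Figure D3:**
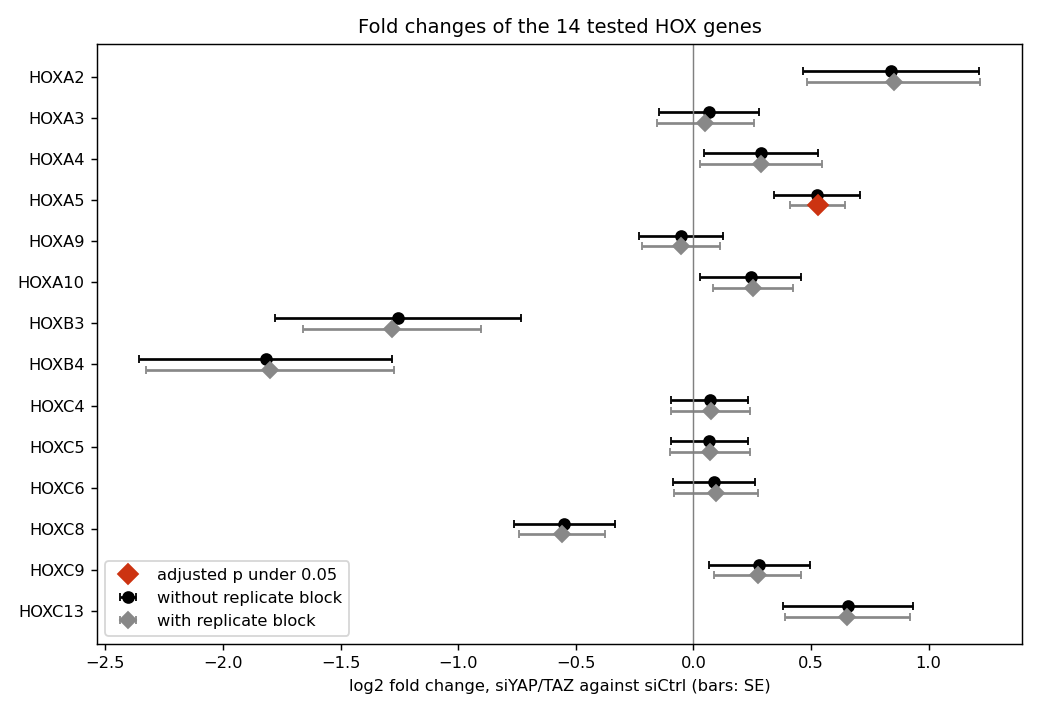
Log2 fold change of siYAP/TAZ against siCtrl (x axis) for the 14 tested HOX genes, with bars of 1 SE, from the edgeR fits without (circles) and with (diamonds) the replicate block. HOXA5 with the block, in red, is the single point past an adjusted p of 0.05, and HOXB3, HOXB4 and HOXC8 lie to the left.

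HOXA5 (Entrez 3202; GRCh37 chromosome 7, 27180671 to 27183300, minus strand) encodes a factor known in lung and mammary epithelial development. It stood at 102.8, 72.5 and 72.1 CPM with siCtrl replicates 1, 2 and 3 and at 141, 101.8 and 113 CPM with siYAP/TAZ. The groups overlapped because siCtrl replicate 1 lay just above siYAP/TAZ replicate 2, but within each replicate number the siYAP/TAZ library was the higher one. The log2 difference was 0.46, 0.49 and 0.65 for replicates 1, 2 and 3. The fitted log2 fold change was 0.53 (SE 0.18), and the adjusted p in edgeR was 0.185. With the replicate block it was 0.53 (SE 0.12) with an adjusted p of 0.0174. Over all alternatives the adjusted p was 0.0174 to 0.899, the highest with the titles' groups. With the groups of the descriptions the highest was 0.497, in edgeR without siCtrl replicate 3. HOXA5 took 29.7% ± 3.23 (SD, n = 3) of all HOX counts with siCtrl and 37.9% ± 2.60 (SD, n = 3) with siYAP/TAZ, with HOXC4 to HOXC6 counted as 1 gene. Because its row and HOXA-AS3 differ by few counts, these values describe the locus: HOXA-AS3 had a fold change of 0.52 (SE 0.18), adjusted p of 0.180 without and 0.0180 with the block.

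HOXB4 (Entrez 3214; GRCh37 chromosome 17, 46652869 to 46655712, minus strand) is known for expanding blood stem cells when overexpressed. It had 11, 10 and 22 counts with siCtrl and 2, 6 and 4 with siYAP/TAZ, which is 3.16, 3.09 and 5.53 CPM against 0.453, 1.98 and 1.09 CPM. All siYAP/TAZ libraries lay below all siCtrl libraries, but the counts were few and the gene met the filter's CPM cutoff in 3 siCtrl and 0 siYAP/TAZ libraries. Its log2 fold change was -1.82 (adjusted p = 0.121 in edgeR, SE 0.54), with an adjusted p of 0.0562 with the block. Without both libraries of conflicting labels it was -2.50 with an adjusted p of 0.0345 in edgeR. Over the alternatives that tested it, all but the mean of at least 10 counts, the adjusted p was 0.0345 to 0.898.

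HOXB3 (Entrez 3213; GRCh37 chromosome 17, 46626232 to 46682274, minus strand) is the neighbour whose span holds HOXB4, and both act in hindbrain patterning. It had 15, 28 and 29 counts with siCtrl and 4, 15 and 11 with siYAP/TAZ, or 4.31, 8.64 and 7.29 CPM against 0.907, 4.96 and 2.99 CPM. The groups overlapped, and within each replicate number the siYAP/TAZ library was lower. The log2 fold change was -1.26 (adjusted p = 0.255 in edgeR, SE 0.52), and the adjusted p was 0.0584 with the block. HOXB3 had more counts than HOXB4 in every library, by 4, 18 and 7 with siCtrl and by 2, 9 and 7 with siYAP/TAZ. Whether the rows share reads was not tested, so the pair may not be separate measurements. The antisense RNA HOXB-AS1 had 5, 19 and 10 counts with siCtrl and 2, 4 and 7 with siYAP/TAZ.

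HOXC8 (Entrez 3224; GRCh37 chromosome 12, 54402769 to 54406553, plus strand) patterns the brachial and thoracic region. It stood at 34.5, 24.4 and 33.2 CPM with siCtrl and at 25.6, 18.5 and 18.5 CPM with siYAP/TAZ. siCtrl replicate 2 lay below siYAP/TAZ replicate 1, so the groups overlapped, and each siYAP/TAZ library was lower than the siCtrl library of its number. The log2 fold change was -0.55 (adjusted p = 0.229 in edgeR, SE 0.21), with an adjusted p of 0.0810 with the block. Over all alternatives the adjusted p was 0.05002 to 0.898, and the lowest came without siCtrl replicate 2 and did not pass. HOXC8 is the one HOXC gene of the 6 tested with a negative fold change.

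HOXA2 and HOXC13 were at the opposite ends of the paralog order and both had positive fold changes. HOXA2 (Entrez 3199; GRCh37 chromosome 7, 27139973 to 27142305, minus strand), which patterns the hindbrain and pharyngeal arches, had 9, 12 and 8 counts with siCtrl and 19, 19 and 16 with siYAP/TAZ. The groups were separate, at 2.77 ± 0.861 and 4.98 ± 1.13 CPM (SD, n = 3), and the gene met the filter's CPM cutoff in 1 siCtrl and 3 siYAP/TAZ libraries. Its log2 fold change was 0.84 (adjusted p = 0.281 in edgeR, SE 0.37).

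HOXC13 (Entrez 3229; GRCh37 chromosome 12, 54332615 to 54340328, plus strand), a regulator of hair keratins, stood at 7.75, 7.10 and 5.28 CPM with siCtrl and at 12.5, 9.26 and 9.79 CPM with siYAP/TAZ. The groups were separate. The log2 fold change was 0.66 (adjusted p = 0.257 in edgeR, SE 0.28, and 0.150 with the block). HOXC13-AS had 6, 3 and 1 counts with siCtrl and 13, 6 and 3 with siYAP/TAZ.

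**Figure D4:**
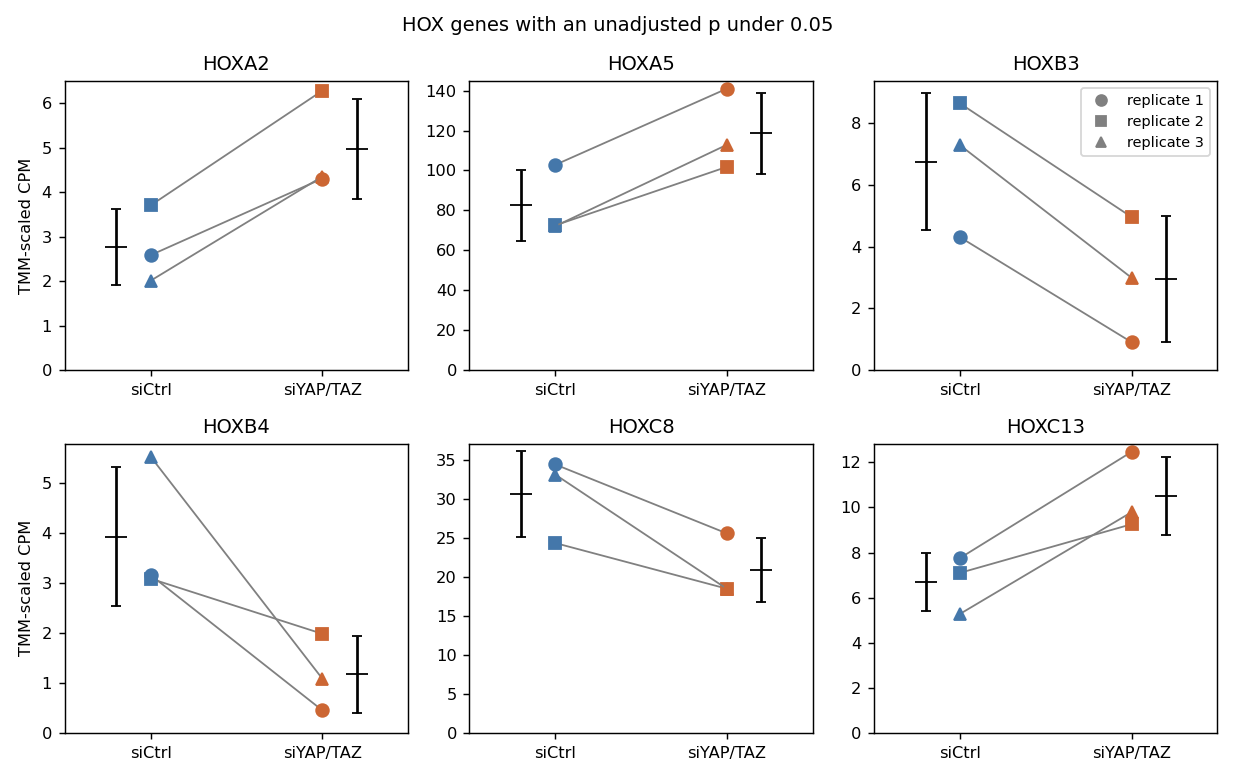
TMM-scaled CPM (y axis, from 0) of the 6 HOX genes with an unadjusted p under 0.05 in each siCtrl and siYAP/TAZ library, with lines joining libraries of the same replicate number and black bars for the mean and SD of each group (n = 3). All lines go up in HOXA2, HOXA5 and HOXC13 and down in HOXB3, HOXB4 and HOXC8.

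The mean levels of the remaining 8 tested genes were 96.4% to 122% of the control level. HOXA3 (GRCh37 chromosome 7, 27145803 to 27192202) stood at 19.2, 17.6 and 20.4 CPM with siCtrl and at 24.7, 17.8 and 17.1 CPM with siYAP/TAZ, and its log2 fold change was 0.07 (SE 0.21). HOXA4 (chromosome 7, 27168126 to 27170399) stood at 7.75, 8.33 and 7.29 CPM and at 9.97, 9.26 and 9.25 CPM, and its groups were separate at a fold change of 0.29 (adjusted p = 0.580 in edgeR, SE 0.24). HOXA9 (chromosome 7, 27202057 to 27214799), a factor central to blood progenitors and leukaemia, stood at 34.5, 28.4 and 25.9 CPM and at 29.9, 30.1 and 25.6 CPM. Its fold change was -0.05 (SE 0.18).

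HOXA10 (GRCh37 chromosome 7, 27210224 to 27219880), known for its part in the uterine lining, stood at 33.6, 20.4 and 24.4 CPM with siCtrl and at 35.1, 27.8 and 29.6 CPM with siYAP/TAZ, and its log2 fold change was 0.24 (SE 0.22). HOXC9 (chromosome 12, 54388679 to 54397121) stood at 19.0, 18.2 and 22.4 CPM and at 20.2, 22.1 and 30.2 CPM, with a fold change of 0.28 (SE 0.21). The shared HOXC4, HOXC5 and HOXC6 rows had fold changes of 0.07, 0.07 and 0.09 with SE of 0.16 to 0.17. Adjusted p of these genes was 0.541 to 0.912 in edgeR. Of the 14 tested genes, 4 had groups that did not overlap (HOXA2, HOXA4 and HOXC13 higher, HOXB4 lower), against 22.1% of all genes tested (11% higher and 11.1% lower), and HOXA2 and HOXB4 passed the filter through the group where they were high.

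By cluster, the summed HOXA level was 206, 156 and 159 CPM with siCtrl and 251, 196 and 202 CPM with siYAP/TAZ, a log2 ratio of means of 0.32. Of the mean HOXA sums of 173 and 216 CPM, the HOXA5 row, shared with HOXA-AS3, gave 82.5 and 119 CPM. The HOXB sum was 8.90, 13.6 and 14.8 CPM with siCtrl and 2.95, 10.6 and 5.71 CPM with siYAP/TAZ, a log2 ratio of -0.96 that rests on HOXB3 and HOXB4. The HOXC sum was 148, 153 and 146 CPM with siCtrl and 159, 137 and 155 CPM with siYAP/TAZ, a log2 ratio of 0.02, and -0.02 with HOXC4 to HOXC6 counted as 1 gene. The groups overlapped in all 3 sums.

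The genes that act with or on HOX clusters were then examined, 96 genes in 6 lists, of which 65 were tested. Of these, 2 passed an adjusted p under 0.05, against 1.96% of all genes tested. With the replicate block 4 were higher and 6 lower, against 4.66% and 5.44% of all genes tested. Among the TALE genes, PBX3, MEIS2, PKNOX1 and MEIS1 did not pass. PBX3 stood at 124 ± 20.3 and 126 ± 4.42 CPM (SD, n = 3), MEIS2 at 67.2 ± 9.93 and 63.4 ± 7.89, PKNOX1 at 21.9 ± 5.29 and 21.6 ± 4.08, and MEIS1 at 16.6 ± 1.51 and 22.8 ± 6.08 CPM. The median log2 fold change of the 6 tested TALE genes was -0.00.

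RARA, the retinoic acid receptor that binds response elements near anterior HOX genes, stood at 437, 418 and 447 CPM with siCtrl and at 273, 213 and 237 CPM with siYAP/TAZ. RARA fell to 55.5% of the control level, with a log2 fold change of -0.85 (adjusted p = 0.0179 in edgeR, SE 0.14). Its adjusted p did not pass when one of 4 libraries was left out: it became 0.0567 for siCtrl replicate 1, 0.115 for siCtrl replicate 3, 0.0843 for replicate 2 of siYAP/TAZ and 0.133 for its replicate 3. It passed when either of the other two libraries was left out. With the replicate block, RXRA, a partner receptor, rose by 0.59 (adjusted p = 0.0282 in edgeR) and ALDH1A3, an enzyme that makes retinoic acid, had a fold change of -0.95 (adjusted p = 0.00178 in edgeR). ALDH1A3 differed widely among siCtrl libraries, at 319, 93.5 and 132 CPM. Without the block its fold change was -1.02 (adjusted p = 0.278 in edgeR), and without siCtrl replicate 1 it was -0.34 (adjusted p = 0.724 in edgeR). RARG at 21.2 ± 3.14 and 21.4 ± 3.63 CPM and DHRS3 at 53.6 ± 19.4 and 68.0 ± 31.2 CPM (SD, n = 3) passed in neither fit. The median of the 10 tested retinoic acid genes was 0.14.

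**Figure D5:**
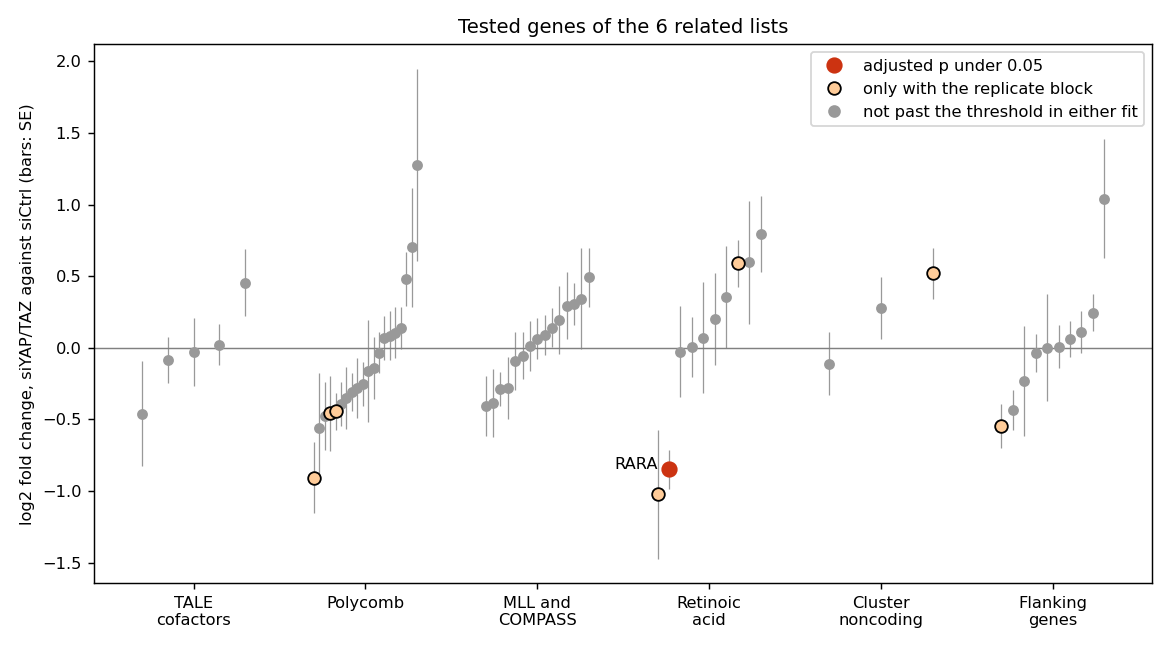
Log2 fold change of siYAP/TAZ against siCtrl (y axis, bars of 1 SE, edgeR without the block) for 63 tested genes of the 6 related lists, each point a gene and each column a list. RARA, in red, passed an adjusted p of 0.05, and pale points passed in the fit with the replicate block.

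Of 21 tested Polycomb genes, which keep closed parts of HOX clusters silent, 0 passed in edgeR without the block. In that fit 6 of them had an unadjusted p under 0.05, against 17.7% of all genes tested. Their median fold change was -0.16. With the block PHF19 at -0.93 (adjusted p = 0.00649), RBBP7 at -0.44 (adjusted p = 0.0386) and PHC2 at -0.49 (adjusted p = 0.0408) were lower in that edgeR fit. The core subunit SUZ12 stood at 165 ± 14.4 and 133 ± 12.3 CPM (SD, n = 3) and EZH2, its methyltransferase, at 67.2 ± 20.0 and 48.2 ± 8.67 CPM, and neither passed in either fit. Of 15 tested MLL and COMPASS genes, which keep HOX clusters open, 0 passed in edgeR with or without the block, and the median was 0.06. In each fit 2 of them had an unadjusted p under 0.05. Of all genes tested, 17.7% did so without the block and 3244 of 12510 with it. KMT2A, the methyltransferase known for holding HOX genes active, stood at 113 ± 24.8 and 109 ± 6.67 CPM.

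The noncoding RNAs within the clusters gave 3 tested rows. HOTAIRM1 stood at 44.2 ± 8.42 and 41.0 ± 10.1 CPM (SD, n = 3), while HOXA-AS3 and HOXA10-AS followed HOXA5 and HOXA10 as described above. HOTAIR, transcribed from the HOXC cluster, had 2 to 6 counts. HOXA-AS2, HOXB-AS2, HOXB-AS4, HOXC-AS1, HOXC-AS2, HOXC-AS3 and HAGLROS were not analysed here. Of 10 tested genes flanking the clusters, 0 passed in edgeR without the block, and the median was 0.01. In that fit 3 of them had an unadjusted p under 0.05, against 17.7% of all genes tested. With the block CBX1, beside HOXB, was lower at -0.54 (adjusted p = 0.0246). SKAP2 beside HOXA stood at 106 ± 8.69 and 125 ± 8.43 CPM, and CBX5 near HOXC at 196 ± 23.5 and 145 ± 14.3 CPM.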

How the data were processed

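The authors deposited raw counts per Entrez gene for 6 3′ mRNA-Seq libraries, with no normalisation. The submitters' processing notes name cutadapt 4.2, Bowtie2 2.3.5.1 and hg19. The methods of the study count reads over genes in R for its RNA-Seq as a whole, and the annotation and use of strand for these libraries are not given in the sources used here. Of the Entrez IDs, 23308 matched a RefSeq symbol (GRCh38.p14, used for names and promoter sequences). GRCh37 coordinates, the same as hg19, are from GENCODE 44.

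Groups and replicate numbers were taken from the descriptions. The study's methods call the replicates of its RNA-Seq biological, while the labels do not say how these libraries were replicated. No libraries held identical values. Counts were fitted with edgeR 4.0.16 (R 4.3.3; TMM, default filter, quasi-likelihood test, Benjamini-Hochberg over 12510 genes, threshold 0.05). The script was tested on simulated data. Standard errors come from the fold change and its F statistic, and CPM is TMM-scaled. Between libraries of one replicate number, deviations from group means were correlated over genes (r = 0.42, 0.35 and 0.13 for replicates 1, 2 and 3), so the numbers, which come from the descriptions, were taken to pair the libraries.

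Alternatives were RLE factors, library size alone, no filter, a mean of at least 10 counts, DESeq2 1.42.0, the replicate block, the titles' groups, both conflicting libraries left out, and omission of each library in turn. The members and lists were chosen with earlier results of these data known. HOX genes are given by counts or by their values. From the other lists, genes past the threshold without or with the block are named, plus up to 4 of the highest mean CPM. Some genes of these lists are not reported here.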

Additional observations from a re-analysis of the deposited data

How the results depend on the processing

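HOX calls numbered 0 in every alternative except the replicate block (1) and the fit without both conflicting libraries (1), and leaving out 1 library gave 0 to 0. Of the 14 tested HOX genes, 11 kept their direction in every alternative that tested them, and HOXB4 was not tested at a mean of at least 10 counts. HOXA3 turned to -0.13 without siYAP/TAZ replicate 1, HOXA9 to 0.073 without siCtrl replicate 1 and to 0.02 without siYAP/TAZ replicate 3, and HOXA10 to -0.0032 with the titles' groups. MEIS2 turned to 0.041 without siCtrl replicate 3. PBX3 turned to -0.00071 with library size alone, -0.13 with the titles' groups, -0.075 without both conflicting libraries, -0.10 without siCtrl replicate 2, and -0.01 with siYAP/TAZ replicate 1 left out. Leaving out 1 library gave -0.13 to 0.17 for HOXA3, -0.14 to 0.073 for HOXA9, -0.18 to 0.041 for MEIS2 and -0.097 to 0.13 for PBX3. PECAM1 turned to -0.32 and TP63 to -0.070 with the titles' groups. Over all genes, 245 calls became 556 without the filter, 587 in DESeq2, 1263 with the replicate block, 0 with the titles' groups, 1183 without both conflicting libraries, and 16 to 1579 when 1 library was left out. The 2 calls among related genes became 10 with the replicate block, 0 with the titles' groups, 5 without both conflicting libraries and 0 to 11 when 1 library was left out. The lowest came without siCtrl replicate 3 (16 calls and 0) or siYAP/TAZ replicate 3 (18 calls and 0) and the highest without siCtrl replicate 2. The HOXC sum moved to 0.12 with the titles' groups. Leaving out 1 library moved the cluster ratios over 0.20 to 0.46 for HOXA, -1.52 to -0.61 for HOXB and -0.03 to 0.08 for HOXC. The causes were not tested. Low counts limit HOXA2, HOXB3, HOXB4 and HOXC11 most.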

Other observations

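Outside the HOX loci, 7 of the 21 tested marker genes passed with the replicate block and not without it. With the block, 10.1% of all genes tested passed, 5.44% lower and 4.66% higher. KRT5 (-0.46, adjusted p = 0.0230), KRT6A (-0.74, adjusted p = 0.00186), LAMB3 (-0.61, adjusted p = 0.00962) and EPCAM (-0.53, adjusted p = 0.0364) were lower in siYAP/TAZ in that edgeR fit. TP63 (0.59, adjusted p = 0.0379), DSP (0.57, adjusted p = 0.0272) and PECAM1 (2.04, adjusted p = 0.0245) were higher. PECAM1 had 6, 4 and 4 counts with siCtrl and 14, 29 and 18 with siYAP/TAZ. It met the filter's CPM cutoff in 0 siCtrl and 3 siYAP/TAZ libraries. PECAM1 was therefore tested only through the group where it was high. KRT5 and KRT6A are basal keratins, LAMB3 is a laminin chain of the basement membrane, DSP is the desmosomal plaque protein and TP63 the basal lineage factor.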
